A study of Mus musculus with 8 samples.

Results

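CD8 T cells, the lymphocytes that recognize peptides on MHC class I and kill the cells that present them, were taken from single-cell profiles of MC38 tumors by the unique molecular identifiers (UMIs, 1 per captured transcript) of their lineage genes. A cell was counted as a CD8 T cell when it held at least 2 UMIs of the CD3 chains Cd3d, Cd3e and Cd3g together, at least 1 UMI of the CD8 chains Cd8a and Cd8b1 together, no UMI of the NK receptor Ncr1 and at most 4 UMIs of the complement genes C1qa, C1qb and C1qc together. The cells were thus chosen by measured UMIs of 9 genes. This gate held 258 of the 9886 cells that passed quality limits (2.61%). The levels of those 9 genes describe the gate and are not results.

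MC38 is a mouse colon carcinoma line that grows in C57BL/6 mice. Tumors were dissociated 24 hours after 1 dose of saline, free R848 or medium R848-BPDs. R848 (resiquimod) is a small imidazoquinoline that activates toll-like receptors 7 and 8, and medium R848-BPDs are bottlebrush polymer prodrugs that carry R848 on a linker of intermediate release rate. The saline and free R848 groups had 3 tumors each and the medium R848-BPD group had 2, each from a different mouse, with no genetic alteration of the host given in the labels. The host animals were young adult females of the C57BL/6J strain. CD45+ and CD45- cells were separated with magnetic beads, and 9 CD45+ cells for each CD45- cell went onto Seq-Well arrays, so that a share of all cells is a share of a loaded mixture, not of the tumor.

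CD8 T cells carry an alpha-beta T cell receptor whose signal passes through the CD3 chains, the kinase Lck and the adaptor Lat. After activation they divide and load granules with perforin, which opens the target membrane, and granzymes, the proteases that enter through it. Under lasting antigen they take up inhibitory receptors such as PD-1 (Pdcd1) and TIM-3 (Havcr2), while less differentiated cells retain the transcription factor TCF-1 (Tcf7) and the lymph node homing receptor CCR7.

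The CD8 T cells had a median of 5146 UMIs and 2278.5 genes per cell, with 1013 to 22944 UMIs in single cells. Free R848 tumors held 64, 28 and 26 of them, medium R848-BPD tumors 52 and 10, and saline tumors 21, 32 and 25. Their median depth per tumor ran from 2758 UMIs (saline tumor 3) to 6544.5 (free R848 tumor 1), and the summed UMIs from 58986 (medium R848-BPD tumor 2) to 467822 (free R848 tumor 1). Levels are given as the UMIs of a gene per 1000000 summed UMIs of the cells of a class in a tumor (CPM). A p-value sets a difference against the spread between tumors, which the gene tests pool over groups and moderate over genes. Medium R848-BPD tumor 2, with its 10 cells, is the thinnest of the 8, and calls that rest on it are given with and without it. Scrublet marked 4 of the 258 cells as doublets, and 1 cell carried a barcode that occurred in more than 1 tumor. All were kept.

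T cell genes that the gate did not use were far above the level of all other cells in every tumor. Trbc2, the constant region of the T cell receptor beta chain, averaged 1039 ± 226 CPM (SD, n = 8 tumors) in CD8 T cells and 31.2 CPM in all other cells, and 91.9% of CD8 T cells against 7.49% of other cells held at least 1 UMI of it. Trac, the alpha chain constant region, averaged 100 ± 29.5 CPM against 2.33. Signaling genes followed the same pattern, with Lck at 546 against 45.2 CPM and Lat at 306 against 10.9. The surface receptors Cd6 (218 against 5.42 CPM) and Cd2 (482 against 25.7) and the thymic selection gene Themis (157 against 1.31) were also higher in 8 of 8 tumors. These are descriptions, since the class was drawn from the same cells, and they carry no test.

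Genes of activated T cells were likewise higher than in all other cells. Pdcd1 averaged 371 CPM against 14.1, the costimulatory receptor Icos 364 against 33.2 and the granule gene Nkg7 930 against 117, each in 8 of 8 tumors. Gzmb, the main effector granzyme, averaged 3056 ± 1811 CPM against 878, and Ifng, the gene of interferon-γ, 274 ± 511 against 8.17 with 7 of 8 tumors higher. Free R848 tumor 3 held most of the Ifng (1521 CPM), and without it the mean was 96.3 ± 90.4 CPM (n = 7). The gene Ikzf2, which encodes the zinc finger factor Helios, averaged 439 CPM against 30.5. The proliferation genes Mki67 (1314 against 436 CPM) and Top2a (1242 against 455) were higher in 8 of 8 tumors, so that the CD8 T cells held more transcripts of dividing cells than the rest of the mixture. Gzma and Gzmc were not raised in the same way. They averaged 654 against 505 and 916 against 1530 CPM and were higher in 2 of 8 tumors each, the other cells including the NK cells described below. Genes of macrophages were lower in 8 of 8 tumors, with Lyz2 at 227 against 2303 CPM and Ctsb, a lysosomal protease, at 565 against 2940.

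**Figure D1:**
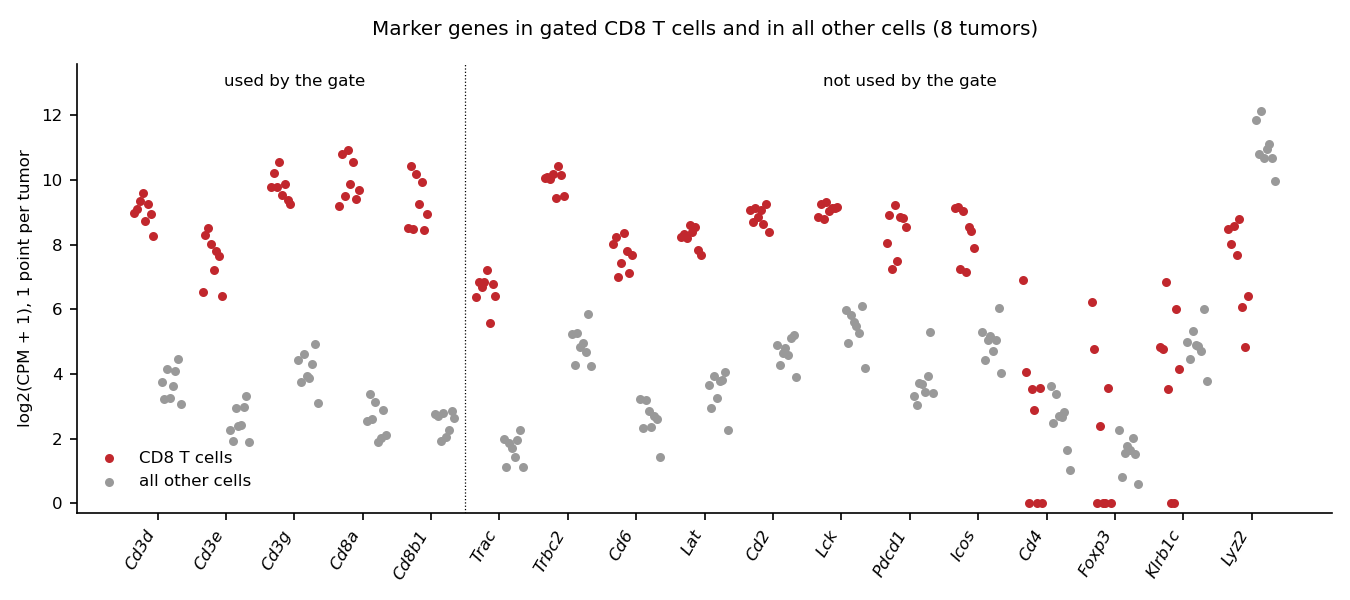
Levels of lineage genes as log2(CPM + 1), 1 point per tumor (8 tumors), in gated CD8 T cells (red) and in all other cells (gray), with the genes used by the gate left of the dotted line. The T cell genes right of the line that the gate did not use, from Trac to Icos, sit higher in CD8 T cells in every tumor, and Lyz2 sits lower.

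Among cells that met the other conditions, the 14 with exactly 2 CD3 UMIs (inside) held Trac in 42.9% and Lyz2 in 21.4%, and the 15 with exactly 1 (outside) held Trac in 6.67% and Lyz2 in 53.3%. The 33 cells with exactly 1 CD8 UMI held Cd4 in 15.2%, near the 21.0% of the 233 cells with no CD8 UMI, while the 225 cells with at least 2 held Cd4 in 3.56%. Those 225 held Trac in 44.9%, against 36.4% of the 33 and 28.3% of the 233. Raising the limit on Ncr1 would have added 5 cells, and the 5 cells with 3 or 4 C1q UMIs (inside) stood beside 4 with 5 to 10 (outside).

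Transcripts of other cells were present within the gate. The summed level of 14 myeloid markers was 1723 to 4502 CPM in CD8 T cells of free R848 tumors, 1042 to 2323 after medium R848-BPDs and 1939 to 2766 after saline, where all other cells held 9410 to 18537. The summed level of 12 NK markers was 357 to 640 CPM, 763 to 1154 and 892 to 1459 in the same order. This sum does not tell NK from myeloid RNA, since it was 4135 to 5450 CPM in NK cells and 2547 to 3955 in C1q-rich myeloid cells. The 7 MHC class II genes varied widely between tumors, from 79.1 to 2935 CPM after free R848, 905 to 1034 after medium R848-BPDs and 558 to 7473 after saline. Of the 258 cells, 205 held no C1q UMI and 53 held 1 to 4. The 6 neutrophil markers summed to 0, 10.5 and 0 CPM in CD8 T cells of saline tumors, 6.41, 620 and 26.8 of free R848 tumors, and 46.6 and 915 of medium R848-BPD tumors, where all other cells held 19.9 to 423. Of these markers 2 were tested, and none was called in the main fit of any treatment comparison. With a replicate block, given at the end, S100a9 was called for medium R848-BPDs against saline. The 8 B cell markers reached 10.5 to 190 CPM (1 to 4 genes with a UMI in a tumor), against 56.9 to 152 in all other cells, the 8 dendritic cell markers 64.1 to 646 CPM (2 to 7 genes) against 380 to 513, and the 6 fibroblast markers 0 to 121 CPM (0 to 4 genes) against 360 to 2077. Among the single members of these lists, Cd79a and Pax5 of B cells, Clec9a of dendritic cells and Lum of fibroblasts were at 0. So was Marco, a macrophage gene outside the 14 myeloid markers (0 of 258 cells allows a share of up to 1.16% with a UMI). Of those 14, 12 to 14 had a UMI in each tumor. The CD4 T cell genes Cd4 and Foxp3 averaged 20 and 14 CPM. Their list of 7 CD4 and regulatory T cell markers summed to 665 to 1664 CPM, against 127 to 258 in all other cells, and its member Il2ra averaged 386 CPM.

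CD8 T cells were a small and variable share of the loaded cells. They made up 6.28%, 2.13% and 2.91% of cells in the free R848 tumors, 3.82% and 0.818% in the medium R848-BPD tumors, and 1.53%, 2.22% and 1.98% in the saline tumors. The 95% Wilson interval, which covers counting error only, ran from 4.95% to 7.94% in free R848 tumor 1, the highest, and from 0.445% to 1.5% in medium R848-BPD tumor 2, the lowest. Both medium R848-BPD tumors thus lay outside the range of the saline tumors, in opposite directions. The group means were 3.78% ± 2.20 (SD, n = 3) after free R848, 2.32% ± 2.12 (n = 2) after medium R848-BPDs and 1.91% ± 0.349 (n = 3) after saline. In two-sided exact permutation tests over tumors, the difference was 1.87 percentage points for free R848 against saline (p = 0.2), 0.411 for medium R848-BPDs against saline (p = 0.8) and -1.46 for medium R848-BPDs against free R848 (p = 0.6).

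As a share of gated T cells, CD8 T cells made up 84.2%, 49.1% and 44.8% in free R848 tumors, 47.3% and 29.4% in medium R848-BPD tumors, and 39.6%, 80.0% and 39.7% in saline tumors. A tumor near 80% was therefore present both with and without R848. The differences were 6.29 points for free R848 against saline (exact permutation p = 0.5), -14.8 for medium R848-BPDs against saline (p = 0.6) and -21.0 for medium R848-BPDs against free R848 (p = 0.5). Adjusted over the 6 comparisons of shares, p was 0.72 to 0.8, and the groups overlapped in every comparison. The smallest p that 3 against 3 or 2 against 3 tumors allow is 0.1, so no share could reach 0.05. Without free R848 tumor 1 the difference from saline was 0.615 points of all cells and -6.13 points of gated T cells, without medium R848-BPD tumor 1 the difference of medium R848-BPDs from saline was -1.09 points of all cells, and without medium R848-BPD tumor 2 it was 1.91.

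**Figure D2:**
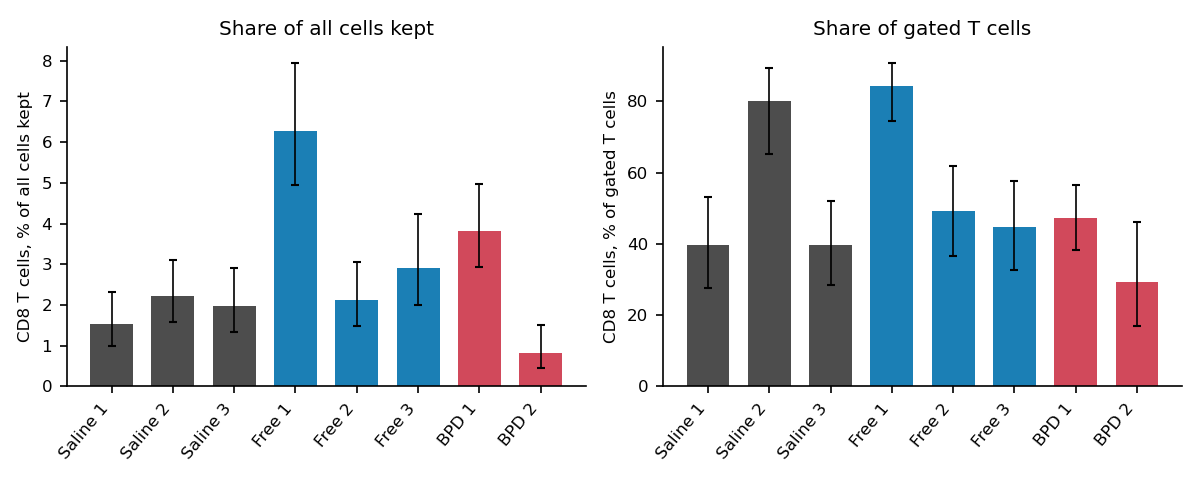
CD8 T cells as a percentage of all cells (left) and of gated T cells (right), 1 bar per tumor with its 95% Wilson interval and with colors for saline (gray), free R848 (blue) and medium R848-BPDs (red). Free R848 tumor 1 (6.28% of all cells) and medium R848-BPD tumor 2 (0.818%) mark the extremes, and the 3 groups overlap.

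To compare states at equal depth, each cell was thinned to 1000 UMIs and called positive for a gene at 1 UMI or more. In the 258 CD8 T cells, 61.6% (159 cells) were positive for Gzmb, 32.9% (85) for Pdcd1, 27.5% (71) for Prf1, the perforin gene, 18.2% (47) for Tcf7 and 18.2% (47) for Cxcr6, a chemokine receptor of tissue T cells. Before thinning these shares were 78.3%, 64.0%, 47.7%, 36.8% and 45.3%. The same genes gave 1.36%, 0.198%, 0.544%, 0.124% and 0.0495% in C1q-rich myeloid cells thinned alike (median 5676 UMIs before thinning, 4044 cells). These cells were gated by at least 5 C1q UMIs and no CD3 or Ncr1 UMI. The gate removes cells that took up CD3 or Ncr1 RNA. The shares can therefore understate the level that free RNA leaves in cells that should lack these genes. Havcr2, in 17.1% of thinned CD8 T cells (44) and 41.1% before thinning, was at 15.8% in the C1q-rich myeloid cells, which express TIM-3 themselves, so that the share was close to that of this class. Ly6a, an interferon-induced surface antigen, was at 40.7% against 47.7%. Ifng was found in 9.30% (24 cells) against 0.124%, and Gzmk, a granzyme of less differentiated effector cells, in 2.71% against 0.293% of NK cells. A gate of 14 cell cycle genes, with at least 2 UMIs after thinning, held 53.9% of CD8 T cells (139), 44.1% of CD8-negative T cells, 37.0% of NK cells and 15.5% of C1q-rich myeloid cells. In the CD8-negative T cells, those with CD3 but no CD8 UMI, the other thinned shares over 229 cells were 56.3% for Gzmb, 24.5% for Pdcd1, 11.4% for Prf1, 21.8% for Tcf7, 10.04% for Cxcr6, 5.24% for Havcr2, 34.9% for Ly6a and 3.06% for Ifng. The shares for Gzmb, Pdcd1, Tcf7 and cycling in this nearest class were thus far closer to those of CD8 T cells than the myeloid shares were, and the tests between the T cell classes are given below.

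Perforin and TCF-1 transcripts rarely met in a cell. Of the 47 Tcf7-positive cells, 1 (2.13%) was also positive for Prf1, against 33.2% of the other 211 cells, and 2 (4.26%) were positive for Havcr2, against 19.9%. Cell cycle genes were found in 61.7% of the Tcf7-positive cells and 52.1% of the rest. The TIM-3 side gave the reverse picture. Of the 44 Havcr2-positive cells, 28 (63.6%) held Prf1, against 43 of the other 214 (20.1%). Pdcd1 was found in 50% of these 44 cells and 29.4% of the rest, Gzmb in 79.5% and 57.9%, and Tcf7 in 4.55% and 21.0%. Cells are not replicates, and since the states also differed between tumors, as described next, these pooled shares are a description with no test.

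The balance of these states varied widely between tumors of the same treatment. Prf1 stood at 1493, 6.34 and 693 CPM in free R848 tumors 1 to 3, at 285 and 634 in medium R848-BPD tumors 1 and 2, and at 38.2, 1320 and 180 in saline tumors 1 to 3. From here on, CPM of single genes carry edgeR's TMM scaling unless said otherwise, while the summed levels of marker lists are given without it throughout. Free R848 tumors 1 and 3 and saline tumor 2 were highest, with medium R848-BPD tumor 2 close to free R848 tumor 3, and free R848 tumor 2 and saline tumor 1 were close to none. Gzmf, a granzyme that mouse lymphocytes make after strong activation, had 1661, 0 and 1154 CPM, then 167 and 51.4, then 0, 2516 and 51.4 in the same order, with the same 3 tumors on top. Havcr2 repeated it, at 447, 31.7 and 330 CPM in free R848 tumors, 69.9 and 85.7 in medium R848-BPD tumors, and 47.8, 395 and 90.0 in saline tumors. So did Rgs16, a regulator of G protein signaling, at 548, 76.0 and 583 CPM, then 126 and 68.5, then 134, 844 and 167.

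Tcf7 ran the other way. It stood at 86.1, 266 and 77.8 CPM in the free R848 tumors, 417 and 411 in the medium R848-BPD tumors, and 153, 26.7 and 334 in the saline tumors, lowest in the 3 tumors highest in Prf1. Satb1, a chromatin organizer of thymocytes and naive T cells, had 162, 418 and 84.2 CPM, then 538 and 617, then 372, 203 and 283. Gzmb varied less in order, at 4381, 1134 and 2968 CPM, then 5172 and 1936, then 1375, 5663 and 1723. Gzma did not follow the perforin pattern, with 4.20, 101 and 13 CPM in free R848 tumors, 833 and 3563 in medium R848-BPD tumors and 9.55, 743 and 0 in saline tumors. Mki67 ranged from 940 to 1630 CPM.

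**Figure D3:**
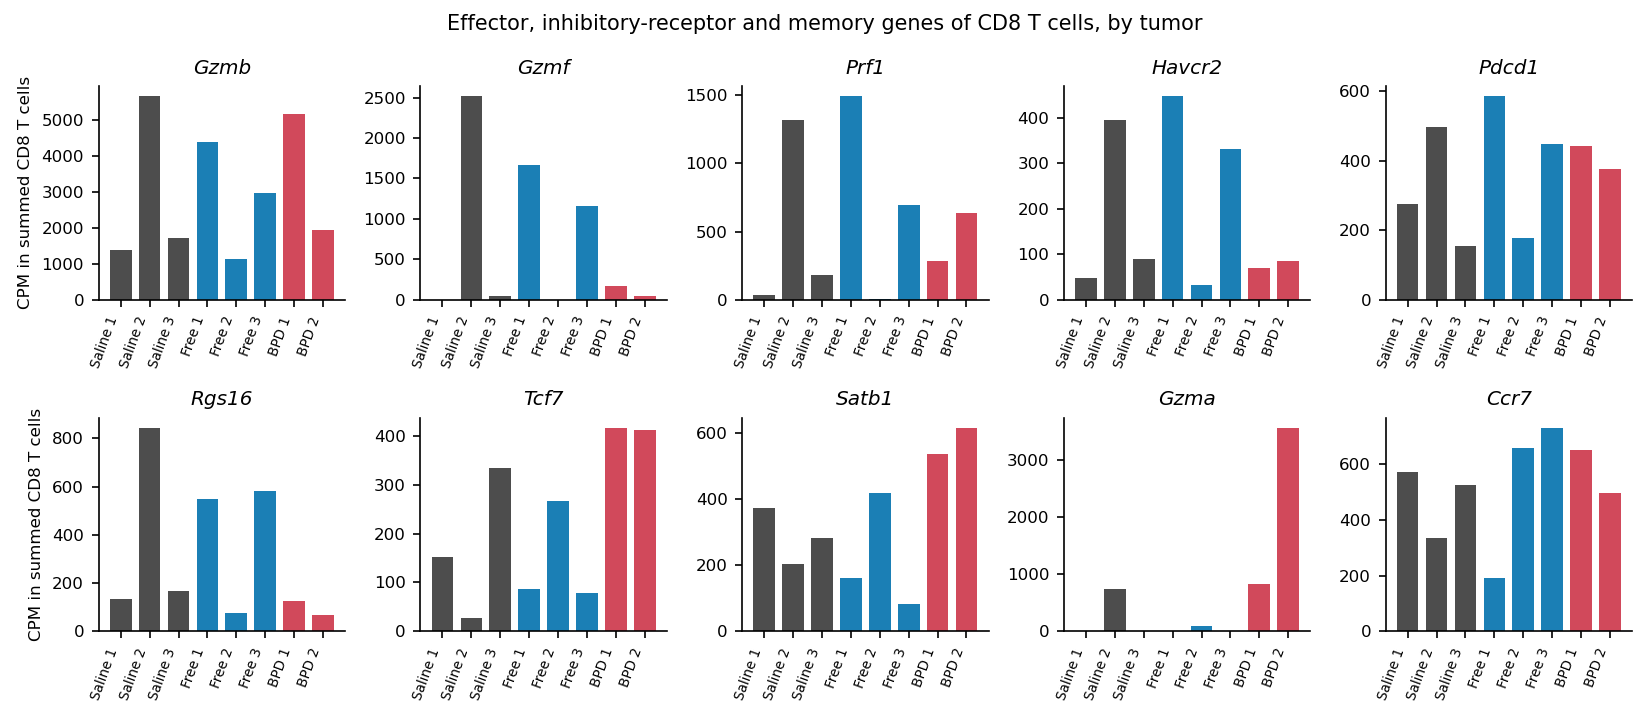
CPM of 10 state genes in summed CD8 T cells, 1 bar per tumor (8 tumors), colored by treatment, with a scale of its own for each gene. Prf1, Gzmf and Havcr2 are highest in free R848 tumors 1 and 3 and saline tumor 2, where Tcf7 is low, so that tumors of unlike treatment resemble each other.

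Over the whole profile the same 3 tumors correlated highly, and medium R848-BPD tumor 1, the second deepest in CD8 T cells, nearly as much. Across 3610 genes, the correlation of log2 CPM (Pearson, a description over genes that share libraries) was 0.894 between free R848 tumor 1 and saline tumor 2 and 0.893 between free R848 tumors 1 and 3, with 0.849 between free R848 tumor 3 and saline tumor 2. Medium R848-BPD tumor 1 reached 0.875, 0.839 and 0.830 with free R848 tumors 1 and 3 and saline tumor 2, while the correlation was 0.799 between free R848 tumors 1 and 2, 0.747 to 0.787 between saline tumors and 0.741 between the medium R848-BPD tumors. Depth moves with these values, since free R848 tumor 1 had the most CD8 T cell UMIs and medium R848-BPD tumor 2 the fewest, and the latter correlated at 0.660 to 0.741 with the others. The part of depth in the likeness was not tested.

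Against the other T cells, the question was what sets CD8 T cells apart from cells with CD3 but no CD8 transcript. These CD8-negative T cells (233 cells, median 4439 UMIs) include CD4 T cells and regulatory T cells and may include gamma-delta T cells and CD8 T cells whose CD8 UMIs were not captured. Summed counts were compared within tumors with edgeR's quasi-likelihood test, with the tumor as a block, in 7 tumors (saline tumor 2 had 8 CD8-negative T cells, under the minimum of 10), and the gate's 9 genes were left out. Of 4833 genes, 19 (0.393%) differed at a Benjamini-Hochberg adjusted p under 0.05, 4 higher (0.0828%) and 15 lower (0.31%) in CD8 T cells. Without saline tumor 1 the count was 31, and without free R848 tumor 1, free R848 tumor 3 or medium R848-BPD tumor 1 it was 11 or 12.

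The 4 genes that were higher in CD8 T cells were Ccr7, Trbc2, Themis and Gzmk. By list these were 1 of 10 naive and memory genes tested (Ccr7), 2 of 19 T cell receptor signaling genes (Trbc2 and Themis) and 1 of 18 cytotoxic genes (Gzmk). Ccr7 averaged 546 CPM against 217, a log2 difference of 1.39 ± 0.25 (SE, adjusted p = 0.0136, edgeR's quasi-likelihood test), and was higher in 7 of 7 tumors. Trbc2 averaged 1025 CPM against 548 (log2 0.88 ± 0.17, adjusted p = 0.0218) and Themis, which tunes receptor signals during thymic selection, 146 against 41.2 (1.98 ± 0.35, adjusted p = 0.0116, higher in 6 of 7 tumors). Gzmk, rare in the CD8-negative cells, was at 52.8 CPM against 1.13 (4.11 ± 0.79, adjusted p = 0.0223).

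The genes that were lower included 3 of 5 CD4 and regulatory T cell markers tested (Cd4, Foxp3 and Il2ra). Cd4, the coreceptor for MHC class II, averaged 21.6 CPM against 172 (log2 -3.24 ± 0.48, adjusted p = 0.00591 in edgeR's test), and Foxp3, the regulatory T cell factor, fell with it (-3.08 ± 0.56, adjusted p = 0.0138), as did Maf (-2.74 ± 0.56, adjusted p = 0.0281). Ccr2, a chemokine receptor of inflammatory monocytes and some T cells, averaged 87.5 CPM against 307 (-1.81 ± 0.25, adjusted p = 0.00483). The costimulatory list was lower in 3 of 14 members tested and higher in 0. These were Tnfrsf4 (OX40, log2 -1.32), Icos (332 against 740 CPM, adjusted p = 0.00897) and Il2ra (-1.06, adjusted p = 0.0116, both by edgeR's test). Il2ra is a cytokine receptor gene and the same call as among the CD4 and regulatory T cell markers above. Nr4a1, an immediate target of receptor signals, Rora, Zfp36l1, Itgb3, Got1, Psen2, Tmem64 and Sepp1, a selenium carrier that macrophages make, completed the list at log2 -1.05 to -1.80. The myeloid markers, with 11 of 13 members negative and a median of -0.49, leaned toward the CD8-negative cells, as did the NK markers (7 of 7 negative, median -0.65, smallest adjusted p = 0.0582 in edgeR's test), and their part in these calls and in the cytotoxic genes was not tested. MHC class II genes leaned the other way, toward the CD8 T cells, with 6 of 6 members positive, a median of 0.58 and none called. Of the gamma-delta T cell markers the 1 tested, Cd163l1, had an estimate of -2.58 ± 0.60 (adjusted p = 0.0876 in edgeR's test), and the summed level of the list was 12.8 to 154 CPM in CD8 T cells and 35.1 to 793 in CD8-negative T cells. The part of MHC class II RNA in the Ccr7 call and of gamma-delta T cells in the Trbc2 call was not tested.

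Gzmk was the only gene called of 18 cytotoxic genes tested between the T cell classes. Gzmb differed by 0.01 on the log2 scale (adjusted p = 0.999), Pdcd1 by 0.02 and Tcf7 by -0.09, and the larger estimates for Prf1 (0.98, adjusted p = 0.592), Havcr2 (1.05, adjusted p = 0.463) and Ifng (2.44, adjusted p = 0.155, all by edgeR's test) did not pass. Of 54 genes induced by type I interferon, none passed, 45 had negative estimates and the median was -0.22, beside 0.01 over all 4833 genes.

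NK cells, the innate killers of the same mixture (684 cells with at least 1 Ncr1 UMI, at most 1 CD3 UMI and at most 4 C1q UMIs, median 6400 UMIs), gave the larger comparison. Of 7840 genes, 1421 (18.1%) passed edgeR's quasi-likelihood test with the tumor as a block (8 tumors), 748 higher (9.54%) and 673 lower (8.58%) in CD8 T cells. Leaving out a tumor gave 1082 to 1443. The classes were drawn by CD3 and Ncr1 in the same cells, so lineage genes such as Cd6 (log2 7.25 ± 0.34), Trbc2 (3.08) and the Klra receptors (Klra4 -5.34, Klra8 -4.71) go with the gates and are no independent sign of identity. The other named genes were Adam19 (5.92), Slfn1 (3.24) and Ikzf2 (3.07), which were higher, and Avil (-5.77), Klrb1b (-4.76) and Dixdc1 (-4.56), which were lower.

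Most granzymes were lower in CD8 T cells. Of 18 cytotoxic genes tested, 12 were lower and 1 was higher. Gzmb averaged 3010 CPM against 7473 in NK cells (log2 -1.43 ± 0.21, adjusted p = 4.7e-05) and Prf1 574 against 2438 (-2.52 ± 0.45, adjusted p = 4.2e-04, both by edgeR's test). Larger estimates belonged to Gzmc, at 903 against 13509 CPM (-4.40), Gzma, at 628 against 4601 (-4.31 ± 0.62), Gzmd (-5.09), Gzme (-4.17) and Gzmg (-5.22 ± 0.36), granzymes of the same chromosome 14 cluster as Gzmb except Gzma on chromosome 13. Gzmk was the exception (4.02 ± 0.53), and Nkg7 differed by -0.15 without passing.

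Inhibitory and costimulatory receptors were higher in CD8 T cells than in NK cells. Pdcd1 averaged 365 CPM against 23.8 (log2 3.84 ± 0.26, adjusted p = 1.4e-09 in edgeR's test). Of 13 inhibitory genes 8 were higher, among them the exhaustion factor Tox (2.69), Lag3 (2.36), Entpd1, the ectoenzyme CD39 (1.41), Ctla4 (1.39) and Tigit (1.01), 1 was lower (Cd244, -1.37), and Havcr2 did not pass (0.57, adjusted p = 0.404). Of 15 genes of the costimulatory list 10 were higher, including Tnfrsf4 (5.82), Cd27 (1.96), Icos (1.19) and the cytokine receptor gene Il2ra (1.48). In the same list 2 were lower, Tnfrsf9 (4-1BB, -0.65) and Slamf7 (-0.71).

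Genes of memory, residence and migration separated the classes as well. Ccr7 averaged 512 CPM against 30.3 (4.18 ± 0.19), Il7r, the interleukin-7 receptor of long-lived T cells, 204 against 11.7 (4.04 ± 0.27) and Cxcr6 164 against 9.18 (4.38 ± 0.30). Tcf7 was also higher (1.56, adjusted p = 0.0054 in edgeR's test). The integrin chain Itgae (CD103, 4.37) was higher, while Itga1 (CD49a) and the chemokine gene Xcl1 were lower at -1.86 each, so that residence genes were divided 3 to 3 among 7 tested. Of 15 effector factors, 4 were higher (Irf4 4.96, Cx3cr1 3.66, Batf and Zeb2) and 7 lower, among them Klrg1 (-3.68), Eomes (-2.44), Irf8 (-1.85) and Tbx21, the T-bet gene (-0.97). Cx3cr1 and Zeb2 are macrophage genes as well, with means of 379 to 512 and 513 to 732 CPM by treatment in C1q-rich myeloid cells, and the myeloid and MHC class II markers that were higher in CD8 T cells than in NK cells, given below, stand beside them. Of 14 secreted factors, 7 were higher, including the chemokine gene Ccl5 (2.36), and 2 lower, and of 21 cytokine and chemokine receptors, 9 were higher (Cxcr3 3.43) and 4 lower (Ccr2 -3.43).

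Interferon-induced genes were higher in CD8 T cells than in NK cells in 35 of 55 members and lower in 1, with a median of 0.69 beside -0.02 over all genes. Ifi27l2a averaged 838 CPM against 46.3 (4.12 ± 0.21), and Ly6c2 (2.77), Ifit1 (2.18), Ifit3 (1.88), Irf7 (1.25) and Isg15 (1.22) were among the others. The interferon-γ GTPases gave 7 of 14 higher and the MHC class I genes 13 of 17, such as H2-K1 (0.56) and B2m (0.32), with none lower. Cell cycle genes were higher in 6 of 41 (Mki67 by 0.47, Top2a by 0.49), a share not far from the 9.54% of all genes. Myeloid markers moved the same way as the interferon genes, with 10 of 12 higher in CD8 T cells (Lyz2 1.19, Apoe 1.13, Cst3 0.91) and 1 lower (Fcgr3, -2.07), and MHC class II genes with 4 of 6 higher. Their part in the interferon genes and in the effector factors was not tested.

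**Figure D4:**
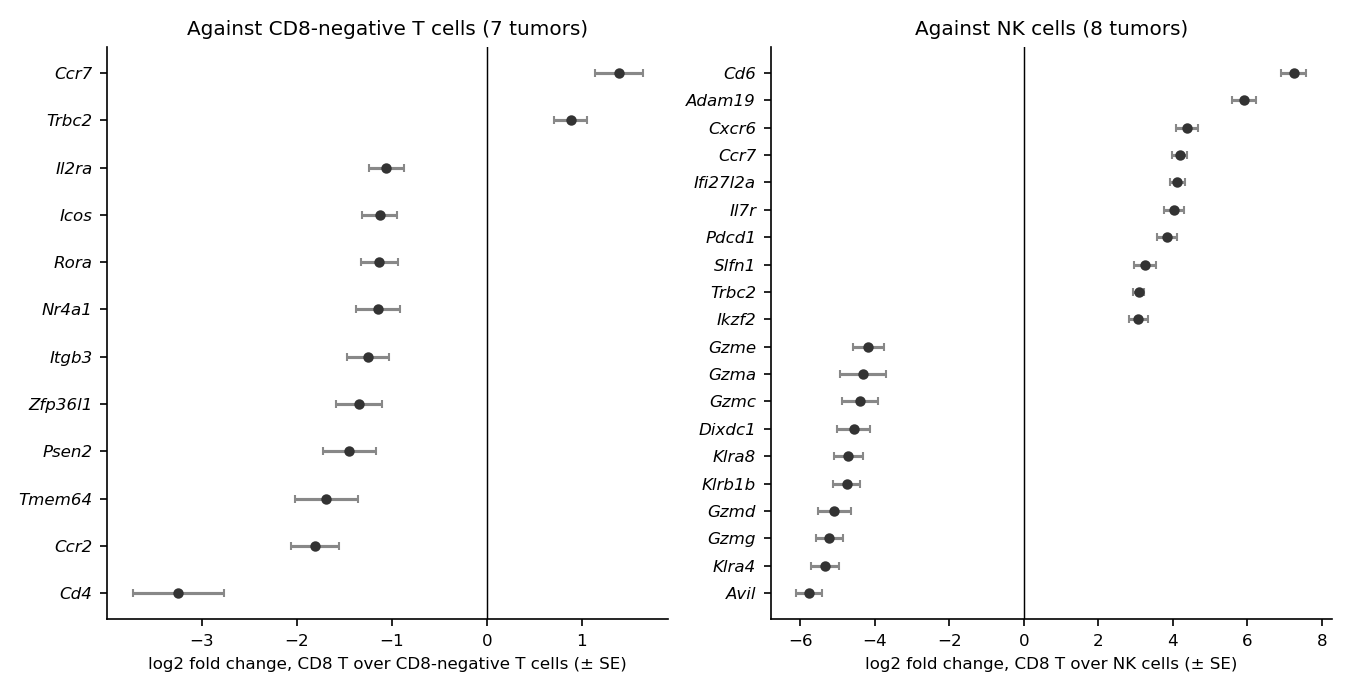
Log2 fold change of CD8 T cells over CD8-negative T cells (left, 7 tumors) and over NK cells (right, 8 tumors) for the called genes with the same sign in every tumor, each point 1 gene with its standard error. Ccr7 lies above 0 in both panels (1.39 and 4.18), Cd4 is lowest on the left (-3.24), and the granzymes Gzma, Gzmc, Gzmd, Gzme and Gzmg lie below -4 on the right.

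The treatments were compared on the summed CD8 T cell counts with the tumor as replicate, over 4295 genes tested in 1 fit of all 8 tumors. A single gene passed. Saa3, the serum amyloid A gene of the acute-phase response, was at 1078 and 925 CPM in the medium R848-BPD tumors, at 12.6, 0 and 0 in the free R848 tumors and at 0 in the 3 saline tumors. The gene lies at chr7:46711998-46715700 (GRCm38, minus strand). Against saline it was at least 126-fold higher, taking 3 UMIs over the saline group (7.93 CPM without TMM scaling) as the floor, with a fitted log2 difference of 10.65 ± 0.81 (SE, adjusted p = 2.14e-04, Benjamini-Hochberg adjustment in edgeR's quasi-likelihood test) that depends on the prior count. Against free R848 the log2 difference was 7.01 ± 0.50 (adjusted p = 1.05e-04 in the same test). This was 1 of 4295 genes (0.0233%) in each comparison, and it passed in every alternative and without either medium R848-BPD tumor (10.3 against saline without tumor 1, 10.9 without tumor 2). In these last fits the group has 1 tumor, which is assumed to vary like the other groups.

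Most Saa3 UMIs of the CD8 T cells lay in 1 cell of each medium R848-BPD tumor. In medium R848-BPD tumor 1, 401 Saa3 UMIs lay in 19 of 52 cells and 299 of them (74.6%) in a single cell, without which the level was 283 CPM (here and in the next sentence without TMM scaling). In tumor 2, 54 UMIs lay in 2 of 10 cells, 31 of them in 1, and the level without that cell was 436 CPM. The cell with 299 held 4595 UMIs in all, with 3 of CD3, 4 of CD8, 8 of Thy1, 3 of Lyz2 and 0 of C1q. Cells without C1q UMIs held Saa3 in 15 of 41 cases in tumor 1 and cells with 1 to 4 in 4 of 11.

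Of the other gated classes, the C1q-rich myeloid cells were richer in Saa3 in both tumors, at 8875 and 14955 CPM, beside 1099 and 916 in CD8 T cells without TMM scaling. Cells in none of the gated classes were richer too in both tumors, at 5191 and 2413 CPM, with at least 1 UMI in 56.1% and 54.9%. On that scale NK cells stood at 129 and 596 and CD8-negative T cells at 173 and 2547. At least 1 UMI was found in 36.5% and 20% of CD8 T cells, 32.8% and 25.0% of CD8-negative T cells, 35.2% and 52.2% of NK cells and 79.4% and 77.9% of C1q-rich myeloid cells. After thinning to 1000 UMIs these were 15.4% and 20%, 10.5% and 20.8%, 5.60% and 17.4%, and 62.2% and 67.3%, so that the thinned shares in CD8 T cells lay below those in C1q-rich myeloid cells in both tumors. With TMM scaling within each class, the CD8 T cell level of Saa3 was 11.7% and 5.88% of that in C1q-rich myeloid cells, where the median of 14 myeloid markers was 2.68% and 9.42%, Lyz2 0.764% and 2.47% and Cst3 36.1% and 48.7%. Neutrophil markers in the CD8 T cells, at 46.6 and 915 CPM, were also above the saline values in both tumors. The part of myeloid or neutrophil RNA in this result was not tested.

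**Figure D5:**
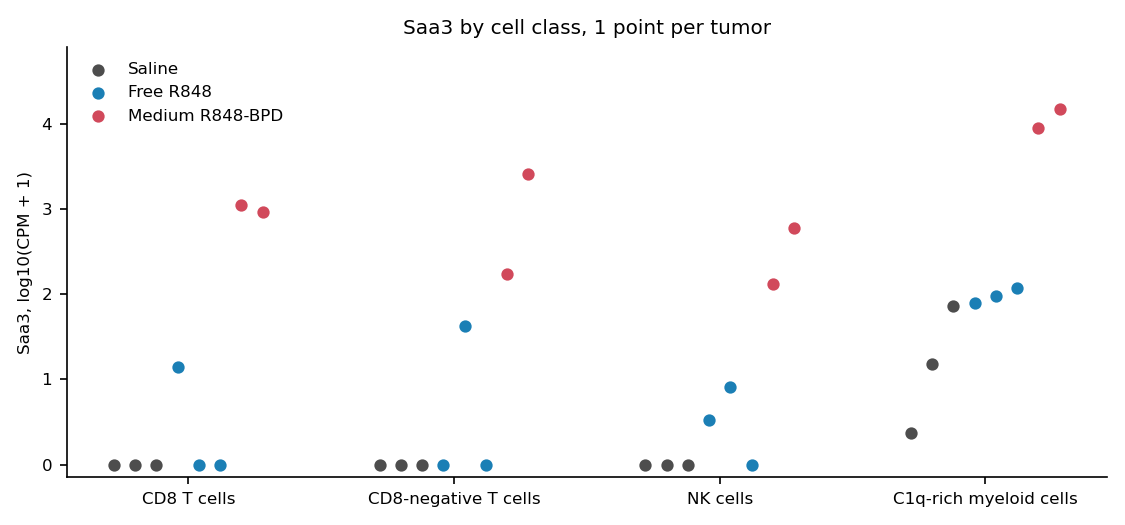
Saa3 as log10(CPM + 1) of summed UMIs by cell class, 1 point per tumor (8 tumors), colored by treatment. CD8 T cells of the medium R848-BPD tumors stand at 1099 and 916 CPM without TMM scaling, C1q-rich myeloid cells of the same tumors at 8875 and 14955, and CD8 T cells of the saline tumors at 0.

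Between medium R848-BPDs and saline no other gene passed edgeR's quasi-likelihood test (227 of 4295 had an unadjusted p under 0.05, and DESeq2 called 4, namely Saa3, Lyz2, S100a4 and Fn1). Without saline tumor 3, edgeR called 2, adding Tnfrsf4 (-2.75). Among the smallest p, S100a4, a calcium-binding protein of motile and effector cells, was at 105 and 51.4 CPM after medium R848-BPDs, 764, 1544 and 411 after saline and 1153, 336 and 778 after free R848. The groups did not overlap, which held for 20.6% of the 4295 genes, and the log2 difference of -3.36 ± 0.65 from saline did not pass (adjusted p = 0.248). S100a4 in all CD8 T cells was found in 21.0% of cells after medium R848-BPDs, 69.2% after saline and 80.5% after free R848. The other classes had lower values too, given without TMM scaling and not tested here. CD8-negative T cells held 228 and 20.5 CPM against 572 to 874 after saline, and NK cells 134 and 68.5 against 388 to 541. C1q-rich myeloid cells held 34.9 and 28.6 against 155 to 728, and cells of none of these classes 177 and 84.7 against 374 to 974. Of 21 genes of the S100 and cytoskeleton list, none passed edgeR's test, while DESeq2 called S100a4. In this list 17 were negative and the median was -0.40, beside -0.01 over all genes.

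Of the 16 naive and memory genes 9 were tested, and all 9 estimates against saline were positive (median 1.02), with none called. They include Tcf7 (1.47 ± 0.67), Satb1 (1.02 ± 0.48), Bcl2 (0.46) and Ccr7 (0.31). Against free R848, 8 of 9 were positive (median 0.86), again with none called. After thinning, Tcf7 was found in 38.5% and 30.0% of CD8 T cells of the medium R848-BPD tumors, 7.81%, 25.0% and 11.5% after free R848 and 9.52%, 0% and 28.0% after saline. For saline tumor 2, 0 of 32 cells allows a share of up to 9.38%. The difference from saline was 21.7 points (exact permutation p = 0.2) and that from free R848 19.4 points (p = 0.2). At 2000 UMIs the saline and medium R848-BPD tumors overlapped, at 42.9% in saline tumor 3 and 20% in medium R848-BPD tumor 2.

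The list of inhibitory receptors and genes expressed with them had none called. Of 11 tested, 9 estimates for medium R848-BPDs against saline were negative (median -0.76). Among these were Rgs16 (-1.89) and the transcription factors Nr4a2 (-1.58) and Nr4a3 (-1.22), which are not receptors, and the receptor Havcr2 (-1.43), while the receptor Pdcd1 was positive (0.36). The cytotoxic list had 11 of 18 negative with a median of -0.09, near that of all genes. Emilin2 and Fn1, matrix genes that macrophages and stromal cells express, stood at -2.33 ± 0.43 (adjusted p = 0.248) and -4.95 ± 1.11 (adjusted p = 0.509, both by edgeR's test). Myeloid markers in the CD8 T cells had 8 of 11 negative (median -0.47) and MHC class II genes 5 of 5 (median -1.70). None of these was called by edgeR, while DESeq2 called Lyz2 of the myeloid list, and their part was not tested. The MHC class II genes summed to 905 and 1034 CPM in the prodrug tumors against 7473, 803 and 558 in saline tumors, so that saline tumor 1 alone was above the prodrug tumors.

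Between free R848 and saline no gene passed edgeR's test (0 of 4295, 0%, smallest adjusted p = 0.202), 200 had an unadjusted p under 0.05, and DESeq2 called 2, Tgfbi and Fcer1g. Tgfbi, a matrix protein gene of macrophages, was at 42.0, 171 and 71.3 CPM after free R848 and 468, 401 and 566 after saline (log2 -2.45 ± 0.44). Fcer1g, the Fc receptor gamma chain of NK and myeloid cells, was at 105, 184 and 110 against 430, 449 and 399 CPM (-1.72 ± 0.30). Lmna, Emilin2 and Rab43 followed at -1.44, -1.60 and -1.26. These 5 genes did not overlap between the groups, as was so for 11.1% of the 4295 genes. Fcer1g counts among the NK markers, whose summed level in the CD8 T cells was 357 to 640 CPM after free R848 and 892 to 1459 after saline, with 5 of 6 members tested negative (median -1.37), and C1q-rich myeloid cells hold this list too, as given above. Myeloid markers had 8 of 11 negative (median -0.15) and MHC class II genes 5 of 5 (median -1.44) in the same comparison, and the part of NK or myeloid RNA was not tested. Without free R848 tumor 2 the count rose to 4 genes, Tgfbi (-3.17), Fcer1g (-1.99), Tyrobp and Il1b.

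Interferon-induced genes in CD8 T cells had mostly negative estimates for free R848 against saline, with 49 of 53 negative, a median of -0.42 beside a median near 0 for all genes, and none called. Rsad2, the antiviral gene viperin, was at 96.6, 184 and 58.3 CPM in free R848 tumors, 153 and 1114 in medium R848-BPD tumors and 745, 203 and 283 in saline tumors (log2 -1.86 ± 0.68 for free R848 against saline, adjusted p = 0.989 in edgeR's test). It was lower in every free R848 tumor than in every saline tumor. The interferon-γ GTPases had 9 of 11 negative (median -0.50), immediate early genes 19 of 21 (median -0.48) and costimulatory genes 12 of 14 (median -0.43), none called. The estimates of MHC class II, NK and myeloid markers given above were mostly negative too. None was called by edgeR in the fit of all 8 tumors, while DESeq2 called Fcer1g of the NK list. Of the CD4 and regulatory T cell markers, 3 of 3 tested were negative (median -0.85), none called by edgeR. Their list summed to 665 to 772 CPM after free R848 and 1091 to 1664 after saline. The part of all these markers in the lists above was not tested. The summed myeloid level did not separate the groups, at 1723, 4502 and 1763 CPM after free R848 and 1939, 2351 and 2766 after saline, and in MHC class II genes saline tumor 1 (7473 CPM) stood apart. Against the same saline tumors, medium R848-BPDs had 34 of 53 interferon-induced genes negative with a median of -0.15. The MHC class I genes had 9 of 17 negative and a median of -0.02 for free R848 against saline.

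Among the thinned shares, cycling did not overlap between free R848 and saline. The cell cycle gate held 57.8%, 64.3% and 53.8% of CD8 T cells in free R848 tumors, 51.9% and 50% in medium R848-BPD tumors, and 42.9%, 50% and 52.0% in saline tumors. The difference of free R848 from saline was 10.4 points (exact permutation p = 0.1, the smallest p this design allows), yet at 2000 UMIs per cell it was -2.16 points, and of 39 cell cycle genes 26 were positive with a median of 0.08 and none called. Over the 14 states and 3 comparisons, 0 of 42 shares (0%) passed at an adjusted p (smallest 0.933), and 7 did not overlap between groups. For medium R848-BPDs against saline these were Tcf7, Tcf7 without Havcr2 and Il7r. For medium R848-BPDs against free R848 they were Tcf7, Tcf7 without Havcr2 and cycling, and for free R848 against saline cycling. Their exact permutation p was 0.1 or 0.2 before adjustment. Tcf7 and Tcf7 without Havcr2 are nearly the same state, since 45 of the 47 Tcf7-positive cells count in both. Of the 4295 genes, 20.6% did not overlap for medium R848-BPDs against saline and 11.1% for free R848 against saline. A lack of overlap alone therefore does not mark a state as changed.

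Between medium R848-BPDs and free R848, Saa3 was the gene that passed, 210 of 4295 genes had an unadjusted p under 0.05, and DESeq2 called 1. Lmna, a nuclear envelope gene, was at 207 and 171 CPM after medium R848-BPDs and 46.2, 69.7 and 77.8 after free R848 (log2 1.68 ± 0.32, adjusted p = 0.311 in edgeR's test). Fth1, the ferritin heavy chain, was at 2589 and 6202 against 1489, 2034 and 1549 CPM (1.37 ± 0.29) and Socs3, a cytokine signaling inhibitor, at 169 and 257 against 42.0, 95 and 38.9 (1.83 ± 0.40). S100a4 (-3.08 ± 0.64) was also among the genes with the smallest p. Interferon-induced genes were positive in 38 of 53 (median 0.36) and cell cycle genes negative in 32 of 39 (median -0.17), none called. NK markers were positive in 5 of 6 (median 0.99), neutrophil markers in 2 of 2 and myeloid markers negative in 9 of 11 (median -0.67), none called, and their part was not tested. In C1q-rich myeloid cells Fth1 had means of 19741 CPM after medium R848-BPDs and 10162 after free R848. The calls rested on few tumors. Without free R848 tumor 2, 6 genes passed, among them Saa3, S100a4 (-3.41), Satb1 (2.11), Socs3 (2.24) and Nrp1 (-3.53). Without medium R848-BPD tumor 1, which leaves 1 prodrug tumor of 10 cells that is assumed to vary like the other groups, it was 3, with Fth1 (1.82) and Smox (3.05) beside Saa3, and without saline tumor 2 it was 2, with Gzma (6.07).

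Whether CD8 T cells responded differently from NK cells of the same tumors was tested by an interaction of class and treatment, blocked on tumor. No gene of 7840 passed edgeR's test in any of the 3 comparisons, with 361 genes at an unadjusted p under 0.05 for medium R848-BPDs against saline, 281 for free R848 against saline and 354 for medium R848-BPDs against free R848. DESeq2 was not run here. The smallest adjusted p values were 0.108, 0.418 and 0.108. The smallest values for medium R848-BPDs against saline belonged to Sparc (-7.03 ± 1.30), a matrix gene, and Ctla4 (-3.25 ± 0.61). The 6 fibroblast markers summed to 2877 CPM in the NK cells of medium R848-BPD tumor 1 and to 2.61 to 31.8 in those of the other 7 tumors, and their part in the Sparc value was not tested. For medium R848-BPDs against free R848 it was Xcl1, the chemokine gene that attracts type 1 dendritic cells, whose difference was higher in CD8 T cells than in NK cells by 4.23 ± 0.75 on the log2 scale. Without free R848 tumor 2 or saline tumor 2 this comparison had 7 genes called each, without medium R848-BPD tumor 2, with 1 prodrug tumor assumed to vary like the others, it had 4 and without saline tumor 3 it had 2. For medium R848-BPDs against saline the count was 8 without saline tumor 3, 6 without free R848 tumor 2, 4 without free R848 tumor 3 and 2 without medium R848-BPD tumor 2 or saline tumor 2, and for free R848 against saline it was 3 without free R848 tumor 2 and 1 without saline tumor 2.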

How the data were processed

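For each of 8 tumors, the authors deposited unnormalized UMI counts by gene symbol and cell barcode, made from reads on mm10 with bcl2fastq named in the submitters' processing notes. The aligner and annotation are not given in the sources used here. Barcodes with 400 genes or fewer, 10000 genes or more, 50000 UMIs or more, or over 15% mitochondrial UMIs were removed, which left 9886 of 10791. Total depth was 5867590 to 12422614 UMIs per tumor. Scrublet (expected rate 0.05) marked 67 cells (0.678%), which were kept. The members and the gene lists were chosen with earlier results of these data known. Positions come from GENCODE vM21 on GRCm38.

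Counts of a class were summed per tumor (at least 10 cells) and tested with edgeR 4.0.16 in R 4.3.3 (TMM scaling, quasi-likelihood F test, p adjusted by Benjamini-Hochberg, threshold 0.05), treatments in 1 fit of all tumors and classes with the tumor as a block. Standard errors were taken as log2 fold change divided by the root of F. The gate's 9 genes were left out. Cells were thinned to 1000 UMIs with a fixed seed for shares, and two-sided exact permutation tests compared them. Named genes were at most 15 called genes per treatment comparison without overlap between groups and with mean log2 CPM 5 or more (with fewer than 5 called, the 5 with the smallest p), the 10 highest and 10 lowest called genes per class comparison with mean log2 CPM 6 or more and the same sign in every tumor, and members of the lists. Genes described by tumor, those in text outside these rules and the choice among list members were made after values were seen. A few genes that fall under these rules are not reported here.

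In simulated counts, 46% of genes changed 4-fold and 76% of those changed 8-fold were recovered for medium R848-BPDs against saline over 4360 genes, 62% and 82% for free R848 against saline over 4585, 44% and 76% for medium R848-BPDs against free R848 over 4360, and 64% of genes changed 2-fold against NK cells over 7681. These are shares of 50 changed genes, including those the filter left untested. For medium R848-BPDs against saline, 23 of 34 tested genes were recovered at 4-fold and 38 of 41 at 8-fold. False calls were 4, 6, 1 and 6 in the order of these comparisons. Alternatives were DESeq2 1.42.0, its size factors, no filter on low counts, fits of the compared groups alone, 10 cells per tumor, other gates and limits, removal of marked doublets, other thinning depths, leaving out each tumor and a replicate block. Other work used Python 3.11.15, with matplotlib 3.10.9, scanpy 1.11.5, pandas 2.3.3, numpy 2.4.6 and scipy 1.17.1.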

Additional observations from a re-analysis of the deposited data

How the results depend on the processing

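Saa3 passed in every alternative run, at log2 9.28 to 10.9 against saline and 6.69 to 10.3 against free R848. Counts of called genes moved more. Without the filter on low counts, 63 genes were called for medium R848-BPDs against saline, 37 for free R848 against saline, 65 for medium R848-BPDs against free R848, 61 against CD8-negative T cells and 29, 15 and 43 for the differences from NK cells in the same order of treatments. DESeq2 called 4 and 2 for the comparisons with saline. With 10 cells per tumor the counts were 2, 4 and 8. With at least 2 CD8 UMIs, 32 genes differed from CD8-negative T cells, and the difference from NK cells between medium R848-BPDs and free R848 had 2, with C1q at 0 it had 6, as had that between medium R848-BPDs and saline, and without marked doublets it had 1. The cause of these shifts was not tested.

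With a replicate block, 3 genes were called for each comparison of medium R848-BPDs (Saa3 and Il1r2 in both, with S100a9 against saline and Gzma against free R848) and 0 for free R848 against saline. S100a9 counts among the neutrophil markers, which summed to 46.6 and 915 CPM in CD8 T cells after medium R848-BPDs and to at most 10.5 after saline. Deviations of same-numbered tumors correlated at -0.322 to 0.156 over 3610 genes. In the medium R848-BPD group of 2 tumors the deviations mirror each other, so these values cannot decide whether the numbers pair tumors. The labels do not say which tumors shared a sequencing run or array, and a batch could not be separated from treatment.

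Leaving out each tumor gave 1 to 2, 0 to 4 and 1 to 6 called genes for medium R848-BPDs against saline, free R848 against saline and medium R848-BPDs against free R848, 11 to 31 against CD8-negative T cells, 1082 to 1443 against NK cells and 0 to 8, 0 to 3 and 0 to 7 for the differences from NK cells. Differences in the share of all cells ran from -1.09 to 1.91, 0.615 to 2.69 and -2.96 to 0.0447 points, and in the share of gated T cells from -23.7 to -1.31, -6.13 to 19.7 and -30.0 to -8.63. The difference of free R848 from saline in gated T cells was -6.13 without free R848 tumor 1, -0.454 without saline tumor 1 and -0.424 without saline tumor 3. With the gate on thinned cells the difference of medium R848-BPDs from saline in all cells was -0.18 points. Cycling reversed for free R848 against saline at 2000 UMIs (-2.16) and for medium R848-BPDs against free R848 without thinning (1.16). Of 668 values of named genes under alternatives 629 stayed on their side of the threshold and none reversed. At these numbers of cells and tumors changes of 2-fold were mostly not detectable, since 10%, 12% and 4% of simulated ones were recovered for medium R848-BPDs against saline, free R848 against saline and medium R848-BPDs against free R848.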
